A study of Cucurbita pepo with 12 samples.

Results

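In zucchini roots (Cucurbita pepo, cultivar Costata Romanesco), 256 of 27868 genes, or 0.919%, formed the set described here. They were chosen as higher in the library from soil with bulk copper oxide (CuO) than in any other root library, by the ratio below. A gene belonged to this set where bulk CuO root plus 1 FPKM was at least 3 times the highest of the other root values plus 1. FPKM is fragments per kilobase of transcript per 1e6 reads, a level that is comparable between genes. The root value under CuO nanoparticles plus 1 also had to be more than 0.5 times that of untreated root plus 1. That condition left out 51 further genes, which reached 3 times but stood lower under nanoparticles than in untreated root.

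The plants were untreated or grew in soil with 100 mg/kg of CuO nanoparticles (CuO NPs), 100 mg/kg of bulk CuO, named CuO raw material in the sample titles, or 320 mg/kg of copper sulfate pentahydrate (CuSO4). Each material supplied about 80 mg/kg of copper. Seeds germinated for 10 days, 1 seedling grew in each pot of 500 g of soil, and root, leaf and pollen were taken after 60 days. By the labels, every tissue and treatment has 1 library, 12 in all, while the study text speaks of 3 biological replicates per treatment. Any pooling of their RNA was not stated in the sources used here. Within a tissue, treatments are therefore compared by size alone, without replicate error and without a p-value.

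Copper is a micronutrient that plants need as a cofactor of photosynthetic electron transport in the chloroplast, of respiration in the mitochondrion and of enzymes that remove superoxide. Free copper ions in excess drive the formation of reactive oxygen species, and plant cells bind them with chelating peptides and metallothioneins. Roots meet the metal first, take up dissolved ions through membrane transporters and hold much of an excess in their cell walls. Particle size changes how fast an oxide dissolves, so nanoparticles, bulk oxide and a soluble salt can deliver the same amount of copper in different forms.

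The genes are printed by the IDs of the deposited table, because 0 of them occur in the RefSeq gene table of the species and the table itself gives no names. No function can be given to a member for that reason, and lists of copper transport, stress or tissue marker genes could not be applied. The tissue labels were therefore not checked against markers. The deposited FPKM values do not give read totals. Their spacing near 0 gave depths relative to the untreated root library of 1.09 for nanoparticles, 1.10 for bulk CuO and 0.917 for CuSO4. The bulk CuO root library was thus the deepest of the root libraries by a small margin, and the part of depth in the results was not tested.

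The members were selected on their root FPKM values, so these values are a description and carry no test. In bulk CuO root the members ranged from 2.11 to 707 FPKM, with a median of 30.4 FPKM. Their medians were 5.11 FPKM in untreated root, 4.75 FPKM with nanoparticles and 5.24 FPKM under CuSO4, close to the medians of all genes in the root libraries, 5.15 to 5.94 FPKM. The typical member was thus a gene of ordinary level in root without bulk CuO. The ratio of bulk CuO root to the highest other root library, both plus 1 FPKM, had a median of 3.91 and a highest value of 18.8. It was at least 4 in 123 members, at least 5 in 62 and at least 10 in 5.

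**Figure D1:**
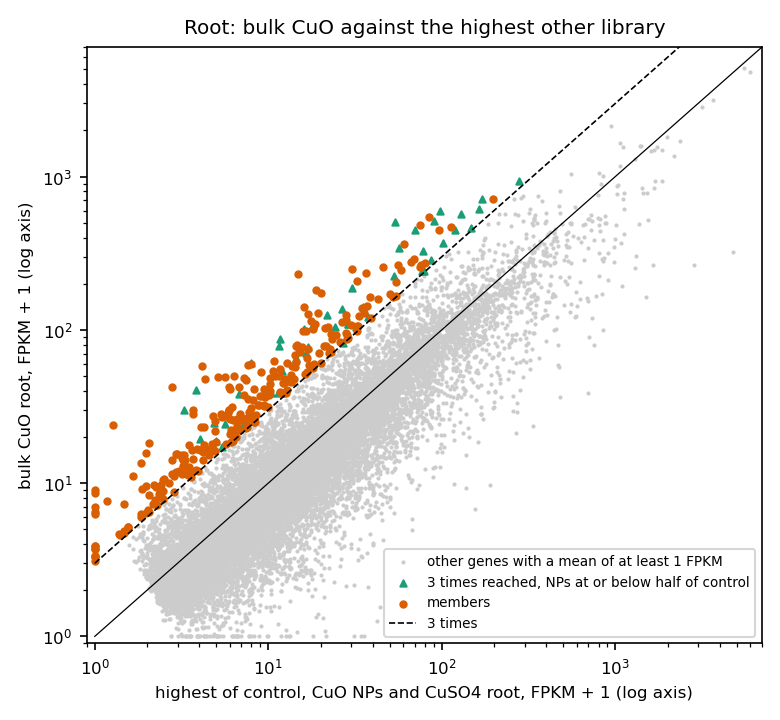
Bulk CuO root (vertical, FPKM + 1, log axis) against the highest of the other root libraries (horizontal, FPKM + 1, log axis), 1 point per gene, with a solid line at equality and a dashed line at 3 times. The 256 members lie on or above the dashed line at every level up to 707 FPKM, mixed with the 51 genes left out for their low nanoparticle value.

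Members lay at all levels of the untreated root library. Of the 256, 82 stood at 10 FPKM or more in untreated root, with a median of 20.0 FPKM there and 104 FPKM under bulk CuO. A further 132 stood between 1 and 10 FPKM in untreated root, with a median of 25.1 FPKM under bulk CuO. The other 42 were under 1 FPKM in untreated root and reached 2.11 to 22.8 FPKM under bulk CuO. Of these low members, 13 were listed at 0 in all of the other root libraries, with bulk CuO values of 2.11 to 7.98 FPKM. A value listed at 0 can be a failed estimate, and 7 members were listed at 0 in every library of the series except bulk CuO root.

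The member with the largest ratio, Cp4.1LG02g08830, stood at 22.8 FPKM in bulk CuO root. It stood at 0.268 FPKM under nanoparticles and was listed at 0 in untreated and CuSO4 root and in all leaf and pollen libraries. Cp4.1LG06g09490 stood at 10.8 FPKM in untreated root, 5.65 FPKM under nanoparticles, 229 FPKM with bulk CuO, 13.9 FPKM with CuSO4, a ratio of 15.4. Outside root it was detected in the nanoparticle leaf library, at 0.538 FPKM, and listed at 0 in all other leaf and pollen libraries. Both leading members were thus nearly absent outside root, and Cp4.1LG02g08830 was nearly absent from the root libraries other than bulk CuO as well.

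The highest level among members was that of Cp4.1LG01g22280, with 173 FPKM in untreated root, 129.6 FPKM under nanoparticles, 707 FPKM with bulk CuO, 195 FPKM with CuSO4. In leaf it stood at 61.4 FPKM in untreated plants, 32.0 FPKM under nanoparticles, 22.0 FPKM with bulk CuO, 16.0 FPKM with CuSO4. Its highest leaf value was therefore that of the untreated plants, unlike in root. Cp4.1LG08g12420 followed, at 54.5, 32.2, 540.1 and 83.6 FPKM in untreated, nanoparticle, bulk CuO and CuSO4 root. Its leaf values were 26.9, 25.7, 9.51 and 8.38 FPKM in the same order, and it was listed at 0 in all pollen libraries.

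**Figure D2:**
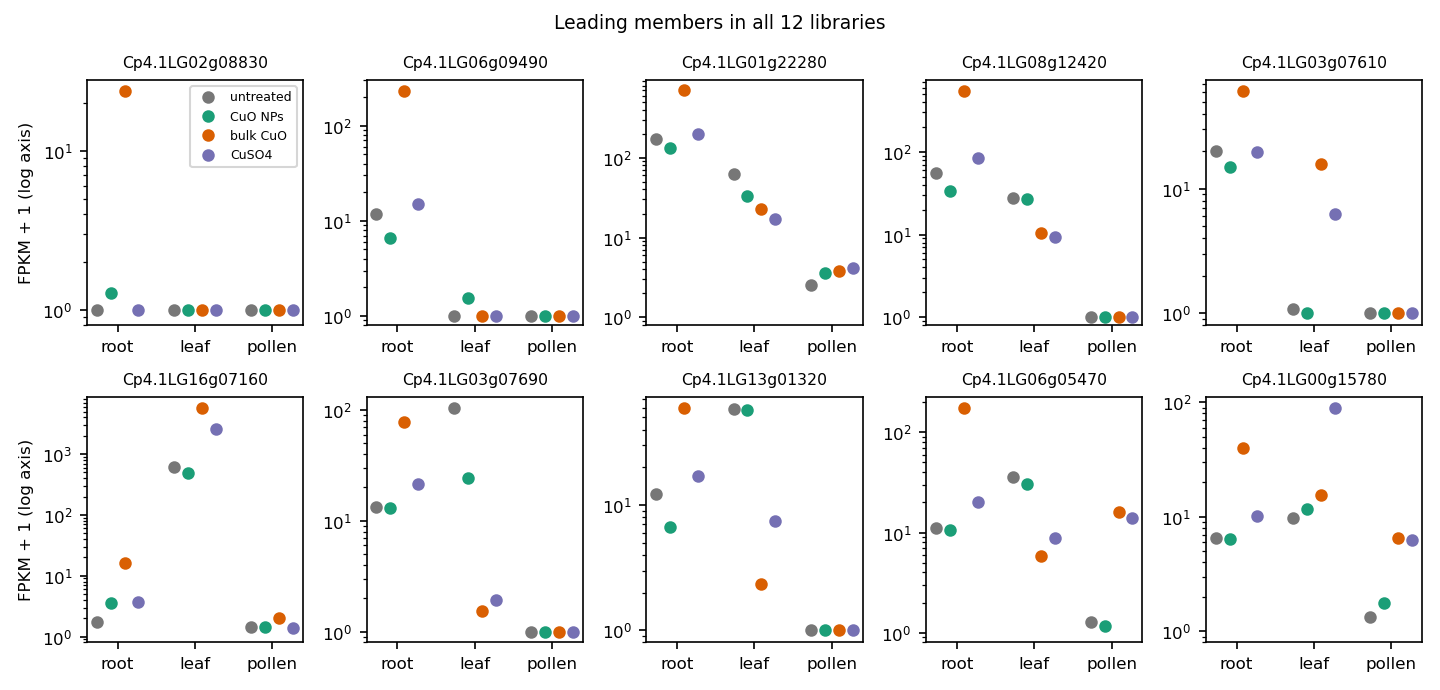
FPKM + 1 (log axis) of 10 leading members in root, leaf and pollen, 1 point per library, coloured by treatment. Bulk CuO is the highest root point of each of them by the rule, while in leaf it ranges from 0 FPKM in Cp4.1LG02g08830 and Cp4.1LG06g09490 to 5676 FPKM in Cp4.1LG16g07160.

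Near the limit of the ratio, a member at 3.003 stood at 24.2 FPKM in bulk CuO root against 7.38 FPKM in the highest other library. A gene just outside, at 2.99, stood at 214 FPKM against 70.9 FPKM. Between 3 and 3.2 lay 33 members, and between 2.8 and 3 lay 41 genes that met the nanoparticle condition, so the set has no gap at its edge. At the nanoparticle limit, a member at 0.501 stood at 8.79 FPKM under nanoparticles and 18.5 FPKM in untreated root. A gene just outside, at 0.491, stood at 36.5 and 75.5 FPKM.

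The other 3 root libraries were not level with each other across the members. Among 238 members with different values in all 3 of them, nanoparticles gave the lowest value in 151, or 63.4%, and CuSO4 the highest in 130, or 54.6%. Among 20943 root genes averaging 1 FPKM or more, again without ties, nanoparticles were lowest in 22.4% and CuSO4 highest in 24.2%. The median log2(FPKM + 1) difference to untreated root was -0.18 for nanoparticles and 0.08 for CuSO4 in the members, against 0.06 and -0.07 in all 20985 root genes kept. The rule used these columns, so the orders are descriptive. Under bulk CuO, 115 members were at or past 2.3 above untreated root, the submitters' log2 threshold, where 0.834% of root genes were. The rule demands a ratio of at least 3 and so raises that count, and nothing is read from it.

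**Figure D3:**
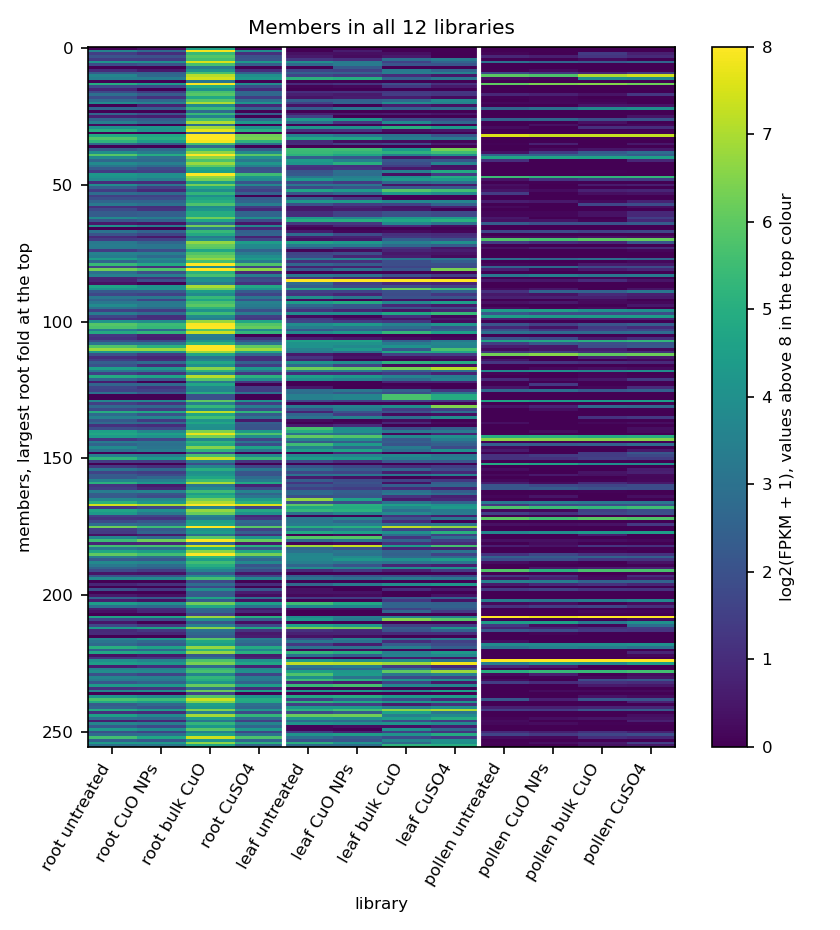
Level of each member (rows, sorted by the root ratio) in the 12 libraries (columns), as log2(FPKM + 1). The bulk CuO root column is high by the rule. The leaf columns hold members of all levels, and most members are low in the pollen columns, with medians of 0.08 to 0.33 FPKM.

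Leaf and pollen libraries were not used to choose the members. A mean of at least 1 FPKM over the 4 leaf libraries was reached by 191 of the 256 members, or 74.6%, as by 74.8% of all genes. In pollen 78 members, or 30.5%, reached it, against 40.1% of all genes. In all 4 pollen libraries at once, 23 members stood at 10 FPKM or more, or 8.98%, against 12.4% of all genes. In all 4 leaf libraries at once, 40 did, or 15.6%, against 26.6% of all genes. Listed at 0 in all 4 libraries of the tissue were 72 members in pollen and 20 in leaf. The same shares of all genes were not counted, so nothing is read from these counts at 0.

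In leaf, the members tended to be lower in the bulk CuO library than in the untreated one. Of the 191 kept, 21 were lower at or past 2.3, or 11.0%, against 3.53% of all 20833 leaf genes kept. Another 7 were higher, or 3.66%, against 4.56% of all genes. The median log2(FPKM + 1) difference was -0.38 in the members and 0.18 in all leaf genes, so relative to the other genes of that library the members lay lower still. With leaf libraries shifted to a common median, 26 members were lower, or 13.6%, against 4.11% of all leaf genes, and 6 higher, or 3.14%, against 3.64%. At a threshold of 1, 59 members were lower, or 30.9%, against 13.6% of all genes, and 30 were higher, or 15.7%, against 21.3%. In leaf and in the other whole-tissue samples, fewer cells of a type and less RNA per cell cannot be told apart.

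These counts depend on which library serves as reference. Against the nanoparticle leaf library, a setting added after the data were seen, 11 members were lower at or past 2.3 and 9 higher under bulk CuO. These were 5.76% and 4.71% of the members kept, against 2.84% and 4.34% of all leaf genes. At a threshold of 1, 52 members were lower, or 27.2%, against 13.1% of all leaf genes, and 33 higher, or 17.3%, against 21.7%. The lower count at 2.3 was thus 11 with the nanoparticle library and 21 with the untreated library as reference.

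The 21 members lower in leaf under bulk CuO stood at 4.52 to 116 FPKM in untreated leaf, with a median of 38.8 FPKM. Their median was 19.5 FPKM under nanoparticles, 2.97 FPKM with bulk CuO, 4.49 FPKM with CuSO4. In root the same genes had a median of 12.4 FPKM in untreated plants and 77.3 FPKM under bulk CuO. In untreated plants 17 of them stood higher in leaf than in root, and under bulk CuO 0 did. The low leaf and high root values under bulk CuO both come from how these 21 were chosen, so nothing is read from that order.

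The largest leaf decrease was that of Cp4.1LG03g07690, with 102 FPKM in untreated leaf, 23.1 FPKM under nanoparticles, 0.535 FPKM under bulk CuO, and 0.914 FPKM with CuSO4. Its log2(FPKM + 1) difference between bulk CuO and untreated leaf was -6.07. Its root values were 12.4, 11.9, 77.3 and 20.5 FPKM in the same order. Cp4.1LG13g01320 stood at 57.3 FPKM in untreated leaf, 56.5 FPKM under nanoparticles, 1.35 FPKM under bulk CuO, and 6.48 FPKM with CuSO4, with a log2 difference of -4.63 for bulk CuO. In root it stood at 11.2, 5.74, 58.2 and 16.2 FPKM. For both genes untreated and nanoparticle leaves lay above bulk CuO and CuSO4 leaves, and root had bulk CuO on top. Both were listed at 0 in all pollen libraries.

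Among the 7 members higher in leaf, Cp4.1LG03g07610 had the largest log2 difference, 3.86. It stood at 0.086 FPKM in untreated leaf, was listed at 0 under nanoparticles, and stood at 14.8 FPKM in bulk CuO leaf, with 5.23 FPKM in CuSO4 leaf. Its root values were 19.0, 13.8, 59.9 and 18.9 FPKM, so CuSO4 was level with untreated plants in root and above them in leaf. Cp4.1LG16g07160 stood at 611 FPKM in untreated leaf, 481 FPKM under nanoparticles, 5676 FPKM with bulk CuO, 2546 FPKM with CuSO4, a log2 difference of 3.21 for bulk CuO. In root it stood at 0.735, 2.61, 15.5 and 2.65 FPKM. It was a leaf gene by level, and its root values stayed far below every leaf value.

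Under CuSO4, 14 of the 191 members were lower than in untreated leaf at or past 2.3, or 7.33%, against 3.34% of all leaf genes. Another 4 were higher, or 2.09%, against 2.86%. At a threshold of 1, 62 were lower, or 32.5%, against 13.4%, and 36 higher, or 18.8%, against 17.5%. The median difference was -0.30 in the members and 0.08 in all leaf genes. Under nanoparticles 0 members passed 2.3 in either direction, against 0.125% lower and 0.101% higher of all genes. At a threshold of 1 there were 10 lower, or 5.24%, against 1.64% of all genes, and 3 higher, or 1.57%, against 0.773%. These comparisons share the untreated leaf library with that of bulk CuO.

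Comparisons without a shared library were set side by side for the leaf. Of the 59 members lower by at least 1 under bulk CuO than in untreated leaf, 56 were also lower under CuSO4 than under nanoparticles, or 94.9%. Among all leaf genes lower by at least 1, that share was 95.3%. All of the 30 members higher by at least 1 stood above the nanoparticle leaf under CuSO4, where the share in all leaf genes was 95.2%. The shares in the members lay near those in all leaf genes. In root, where the rule bounds the CuSO4 values, the members' median under CuSO4 was near the untreated one.

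Directly between bulk CuO and CuSO4 leaves, 3 members were lower under bulk CuO at or past 2.3, against 0.346% of all leaf genes, and 0 were higher, against 0.773%. The median difference was 0.01 in the members and 0.10 in all leaf genes. In root the members differ between these materials by choice.

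**Figure D4:**
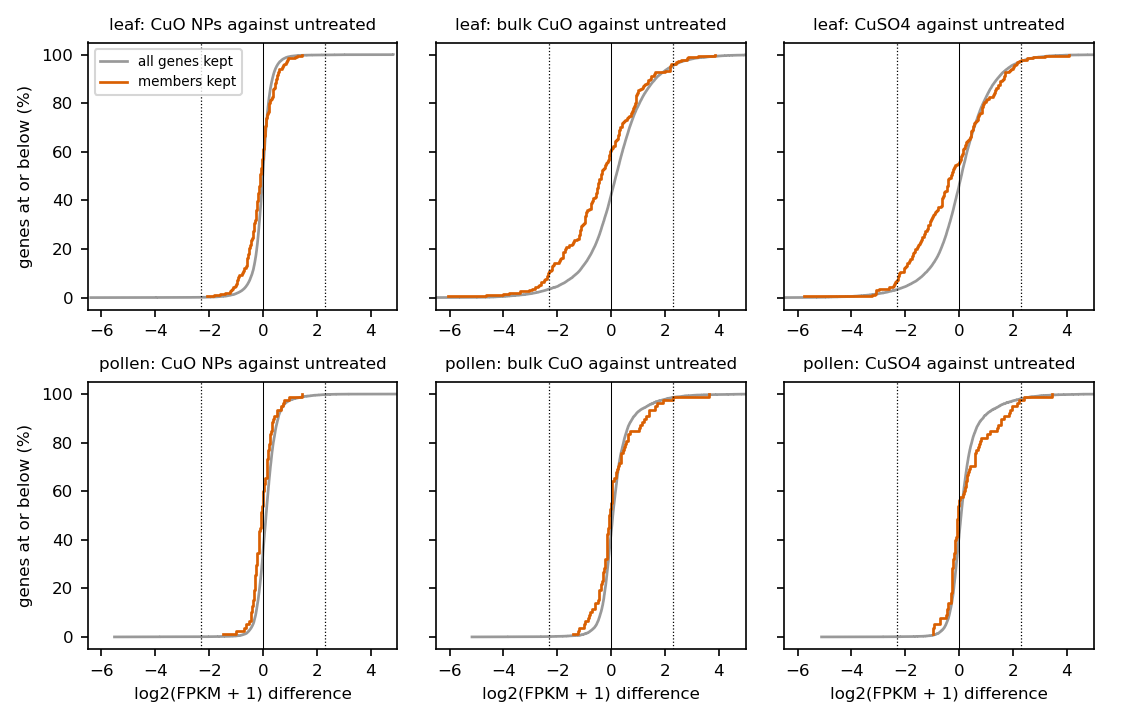
Cumulative share of genes (vertical, %) by log2(FPKM + 1) difference to the untreated library of the tissue (horizontal), for 191 members in leaf and 78 in pollen (orange) and all genes kept (grey), with dotted lines at -2.3 and 2.3. Under bulk CuO and CuSO4 in leaf the members' curve lies to the left of the grey one at the median, with medians of -0.38 and -0.30 against 0.18 and 0.08.

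The order of leaf and root in the members is a description, because the rule sets high root values under bulk CuO. In untreated plants 104 of the 256 members stood higher in leaf than in root, under nanoparticles 101 and under CuSO4 81. Under bulk CuO 17 did, and 89 of the 104 stood higher in root there. The share of all genes with leaf above root was not counted. The members with the highest value in root among the 3 tissues numbered 121 in untreated plants and 225 under bulk CuO. Over all genes detected in a treatment, root was highest in 50.4% in untreated plants and in 40.1% under bulk CuO. Leaf was highest in 93 members in untreated plants, 92 under nanoparticles, 69 under CuSO4 and 16 under bulk CuO. Over all genes detected, leaf was highest in 34.5%, 31.9%, 39.9% and 45.4% in the same order. The root side of the shift in the members follows from the rule, so nothing is read from the change in order under bulk CuO.

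**Figure D5:**
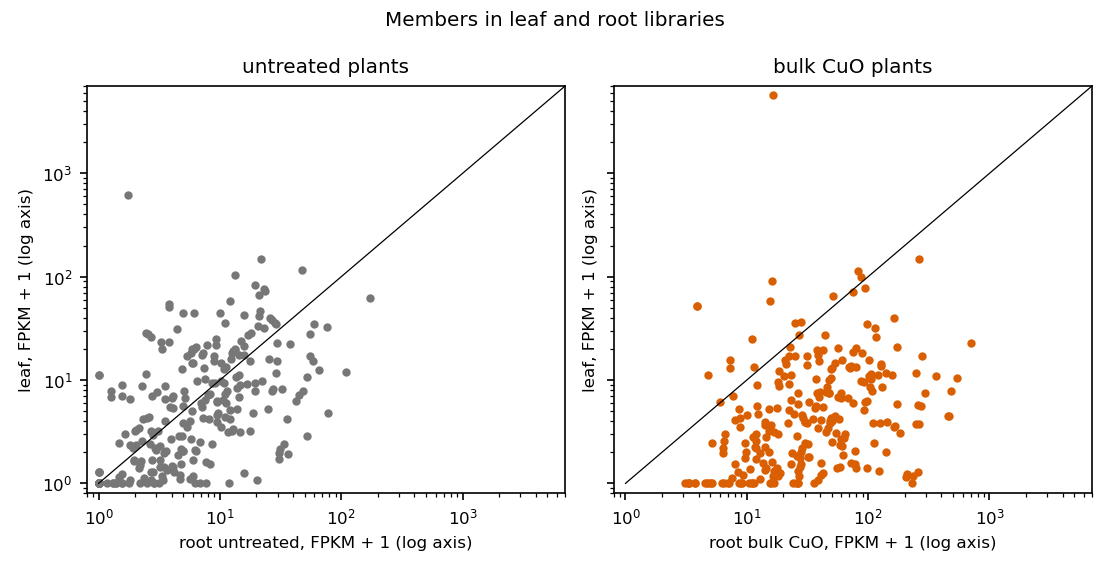
Leaf against root level of the 256 members (FPKM + 1, log axes), in untreated plants (left) and under bulk CuO (right), with a line at equality. In untreated plants 104 members lie above the line and under bulk CuO 17, where the rule sets high root values. The same share of all genes was not counted.

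In pollen, 2 of the 78 members kept, or 2.56%, were higher under bulk CuO than in the untreated library at or past 2.3. Of all 11185 pollen genes kept, 1.45% were. Lower were 0 members, against 0.152%. Under CuSO4 2 were higher, or 2.56%, against 1.95%, and 0 lower, against 0.0805%. Under nanoparticles 0 were higher, against 0.25%, and 0 lower, against 0.0894%. At a threshold of 1, bulk CuO had 12 members higher, or 15.4%, against 7.38% of pollen genes, and 3 lower, or 3.85%, against 1.15%. CuSO4 had 14 higher, or 17.9%, against 8.57%, and 0 lower, against 0.635%. Nanoparticles had 1 higher, or 1.28%, against 2.59%, and 2 lower, or 2.56%, against 0.438%. The median difference under bulk CuO was -0.05 in the members and 0.07 in all pollen genes.

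Cp4.1LG06g05470 had the largest pollen difference. It stood at 0.265 FPKM in untreated pollen, 0.158 FPKM under nanoparticles, 14.9 FPKM with bulk CuO, 12.9 FPKM with CuSO4, a log2 difference of 3.65 for bulk CuO. In leaf it stood at 34.5, 29.8, 4.82 and 7.8 FPKM in the same order, and in root at 9.98, 9.50, 173 and 19.1 FPKM. Within each tissue, bulk CuO was thus its highest library in root and pollen and its lowest in leaf. Cp4.1LG00g15780 stood at 0.333, 0.756, 5.59 and 5.22 FPKM in pollen, a log2 difference of 2.31 for bulk CuO. In leaf it stood at 8.78, 10.6, 14.4 and 88.8 FPKM, so that CuSO4 was highest there.

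Leaf and pollen were compared with limma, with the 4 treatments as replicates of a tissue and as a block. Of 202 members fitted, 134 were higher in leaf (66.3%, against 68.2% of the 22243 genes fitted) and 22 higher in pollen (10.9%, against 12.9%). A call required a log2(FPKM + 1) difference of 1 or more and an adjusted p (Benjamini-Hochberg) below 0.05. The median log2 difference between leaf and pollen was 1.87 in the members and 1.95 in all genes, so the direction of most calls went with the whole library. With libraries shifted to a common median 33 members were higher in leaf and 72 in pollen, or 16.3% and 35.6%, against 20.1% and 35.3% of all genes. With quantile normalization they numbered 42 and 47, or 20.8% and 23.3%, against 27.1% and 25.4% of all genes.

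Cp4.1LG16g07160 averaged 2328 ± 2423 FPKM in leaf and 0.567 ± 0.317 FPKM in pollen (SD, n = 4 libraries each), a log2 difference of 9.86 (SE 0.58, limma adjusted p = 3.6e-05). Cp4.1LG03g16100 averaged 88.5 ± 33.4 FPKM in leaf and 0.141 ± 0.104 FPKM in pollen (SD, n = 4 libraries each), a log2 difference of 6.23 (SE 0.23, limma adjusted p = 1.23e-05). On the pollen side, Cp4.1LG18g06750 averaged 104 ± 56.4 FPKM in pollen and 1.34 ± 0.783 FPKM in leaf (SD, n = 4 libraries each), a log2 difference of -5.39 (SE 0.50, limma adjusted p = 0.000172). Cp4.1LG02g04850 averaged 77.3 ± 11.8 FPKM in pollen and 1.11 ± 0.869 FPKM in leaf (SD, n = 4 libraries each), a log2 difference of -5.30 (SE 0.34, limma adjusted p = 4.66e-05). The set thus held genes of strongly different tissue patterns outside root.

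An effect of bulk CuO shared by leaf and pollen was tested with limma on these 8 libraries, with tissue as a block. Of 67 members averaging 1 FPKM or more in both tissues, 0 passed an adjusted p under 0.05, and 4 had an unadjusted p under 0.05. Among all 9776 genes fitted 0.0% passed in either direction, and 5.37% had an unadjusted p under 0.05. The error of this test is the difference of effects between leaf and pollen.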

How the data were processed

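The authors deposited 1 table of FPKM values for 27868 genes and 12 libraries. Per the series design text, total RNA gave stranded TruSeq mRNA libraries, sequenced as single reads of 75 bp, aligned with STAR to a transcriptome of a cucurbit database and normalized. Cutadapt and StringTie appear in the submitters' processing notes. The sources used here do not give tool versions or the genome build. Without read counts in the deposited table, count models were not applicable and absolute depth is unknown. Relative depth came from ratios of values between 0.05 and 1.5 FPKM, matched to ratios of whole numbers from 1 to 4. FPKM of a gene depends on the rest of its library, so values were also rescaled.

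The members and all tests were chosen with earlier results of these data known. All differences are on the log2(FPKM + 1) scale, where those of low genes are understated. A log2 difference of 2.3, the threshold the design text names, is a 4.92-fold difference in FPKM + 1. The filter was an average of 1 FPKM over the 4 libraries of a tissue; in root 248 members did, partly through their bulk CuO value. For leaf against pollen 1 of the tissues sufficed. Within a tissue counts of members past a difference threshold are set beside the same share of all genes. limma 3.58.1 (R 4.3.3) used empirical Bayes moderation with a trend. Nothing says whether the treatments' plants of leaf and pollen were the same, so p-values measure the spread between these libraries. Genes were named by rank: in root the 2 largest ratios and the 2 highest bulk CuO levels, in leaf and pollen up to 2 per direction past 2.3 under bulk CuO, and 2 per direction for leaf against pollen. Steps were tested on simulated data. For limma the simulated noise was equal for all genes, with no treatment effect that differed between tissues. That test therefore does not show how many real changes the bulk CuO fit over leaf and pollen could find. Python 3.11.15, numpy 2.4.6, pandas 2.3.3 and matplotlib 3.10.9 were used. Alternatives were pseudocounts of 0.1 and 5, no filter, a common median, quantile normalization, other thresholds and leaving out genes listed at 0 or libraries.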

Additional observations from a re-analysis of the deposited data

Results flagged for a closer look

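Cp4.1LG06g05470 went in opposite directions under bulk CuO in leaf and pollen: its log2(FPKM + 1) difference to the untreated library was -2.61 in leaf and 3.65 in pollen. The rule places it higher in root as well. With 1 library per treatment the difference between tissues was not tested.

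Of the members, higher in bulk CuO root by the rule, 21 were lower in bulk CuO leaf at or past 2.3. This difference between tissues was not tested either, and the root direction was fixed by the choice of members.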

How the results depend on the processing

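The set depended most on the value added to FPKM and on the ratio: 458 genes met the rule with 0.1 added, 242 of them members, 130 with 5 added, 748 at 2 times and 123 at 4 times. A common median gave 260 genes, 245 of them members, and quantile normalization 243, of which 229. Without genes listed at 0 in root 229 members remained. Members past the threshold against the untreated library, in either direction, numbered 28 for bulk CuO and 18 for CuSO4 in leaf. They numbered 46 and 40 with 0.1 added, 8 and 7 with 5 added, and 89 and 98 at a threshold of 1. The share of all leaf genes moved too, from 8.09% and 6.19% to 12.9% and 10.9% with 0.1 added, and to 2.93% and 2.47% with 5 added. At a threshold of 1 it was 34.9% and 30.9%. Against the nanoparticle leaf library, chosen after seeing the data, bulk CuO had 20, and 85 at a threshold of 1. All leaf genes had shares of 7.18% and 34.8% there. In pollen bulk CuO and CuSO4 had 2 each. They had 9 each with 0.1 added, 0 each with 5 added, 1 each after a common median or quantile normalization, and 15 and 14 at a threshold of 1. The share of all pollen genes moved too, from 1.6% and 2.03% to 4.82% and 5.31% with 0.1 added, and to 0.34% and 0.384% with 5 added. It was 1.40% and 1.65% after a common median, 1.42% and 1.73% after quantile normalization, and 8.54% and 9.21% at a threshold of 1. For nanoparticles, with 0 past 2.3 in both tissues, a threshold of 1 gave 13 in leaf and 3 in pollen. The shares of all genes kept there were 2.41% and 3.03%. The leaf against pollen balance reversed after a common median, with 105 members called, and after quantile normalization, with 89, instead of 156. Leaving out the libraries of 1 treatment at a time gave 151 to 160 members, and 0 to 0 for bulk CuO over leaf and pollen. The causes of these changes were not tested. Of 69 alternatives, 44 stayed within 1.5 times the reported count, with the same balance of directions where there were directions. Those 44 include the alternatives in which a count of 0 stayed at 0, for nanoparticles at 2.3 and for bulk CuO over leaf and pollen. A count that stays at 0 says little about stability. The groups share a single replicate number, so replicate numbers pair nothing. Leaf and pollen libraries were matched by treatment as a block, and without this block 157 members were called. Low FPKM values rest on few reads, whose number is unknown, and a single library per treatment gives no replicate error.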

Other observations

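Members were found under every linkage group prefix of the gene IDs, from 0.35% of the genes with the prefix LG17 to 1.51% of those with LG10. The prefix LG00 made up 4.30% of the members and 5.87% of all genes. Among the members 3 pairs had neighbouring IDs in the table. The genes of 1 of these pairs, with the prefix LG07, had the same value in all 12 libraries. Another pair, with the prefixes LG00 and LG14, agreed within 0.05 FPKM in all 12, so the levels of these 4 members are uncertain if reads were shared, which was not tested. Pairs alike within a wider limit were not counted. Cp4.1LG00g10570 and Cp4.1LG12g11950 stood at 31.4 and 30.7 FPKM in bulk CuO root and at 0.801 FPKM each in bulk CuO leaf. Cp4.1LG16g01920 and Cp4.1LG00g09400 stood at 4.185 and 4.075 FPKM in bulk CuO root. The same uncertainty holds for them.

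Of the 256 members, 16 were listed at 0 in all leaf and pollen libraries, or 6.25%, against 7.34% of all genes. Among root genes averaging 1 FPKM or more that share was 1.06%. Of the members 248 passed that filter, some of them only through their bulk CuO value. The 1.06% is therefore no like background, and nothing is read from it.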
